A study of Mus musculus with 10 samples.

Results

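Transcription factors of the cerebellar granule cell lineage were followed across MYC/SMARCA4 tumors, SHH medulloblastomas (MB) and early postnatal cerebella of mice. The 10 genes are Atoh1, Barhl1, Barhl2, Zic1, Zic2, Pax6, Neurod1, Neurod2, Meis1 and Etv1. They were chosen by symbol as factors known from this lineage, and all 10 were found among the 50559 genes counted. RNA was isolated from formalin-fixed, paraffin-embedded (FFPE) tissue, and reads were counted per gene in 10 libraries. The 4 MYC/SMARCA4 tumors were taken as biopsy punches from CD1nu/nu mice, an immunodeficient strain, labelled with ages of 112, 96, 89 and 79 days for tumors 1 to 4. These hosts had received granule cell precursors (GCPs) of Math1-creERT2::Smarca4fl/fl pups, in which deletion of Smarca4, a chromatin remodeler gene, had been induced. The GCPs carried a lentiviral construct of murine Myc behind a CMV promoter. They had not been sorted for recombined or transduced cells, and the hosts kept their own cerebellum. The 3 SHH MB came from Math1-cre::Smofl/wt mice, labelled as 7 days old, in which Cre acts on Smo, the signal transducer of the Hedgehog pathway. The 3 control samples were whole P7 cerebella of Math1-creERT2::Smarca4fl/fl mice, which got tamoxifen (0.4 mg) at an age of 3 days, so that deletion of Smarca4 was induced in these controls too. Math1 is the older name of Atoh1, so regulatory sequence of one of the 10 genes drives the recombinase in both mouse lines. Host strain, transplantation and age differ together with the tumor group and cannot be told apart from it.

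GCPs arise at the rhombic lip, where Atoh1 specifies them, and divide in the external granular layer under Sonic hedgehog released by Purkinje cells. As they leave the cell cycle, Atoh1 is switched off, Neurod1 and related factors rise, and the young neurons migrate inward to the internal granular layer. Zic and Pax6 proteins are present from dividing precursor to neuron, whereas Etv1 belongs to the late, activity-dependent steps of granule cell maturation. SHH MB derives from GCPs and is known for high Atoh1.

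Total counts lay between 5663491 and 9352109 per library, and 29952 genes, all 10 factors among them, passed the filter on low counts. Levels are given as CPM, normalized counts scaled to the library size. The normalization factors (TMM) were 0.62, 0.81, 1.27 and 0.88 for tumors 1 to 4 and 1.01 to 1.19 for the other libraries. A factor under 1 raises the CPM of a library, so the place of tumors 1 and 3 against other libraries depends on this scaling. A floor of 3 counts corresponds to between 0.304 and 0.737 CPM depending on the library. Myc had 151 to 1574 CPM in the tumors, 33.4 to 45.4 CPM in SHH MB and 12.9 to 14.2 CPM in P7 cerebella. Smarca4 had 135 to 242 CPM in the tumors, 486 to 585 CPM in SHH MB and 219 to 279.7 CPM in the P7 cerebella, and counts per gene do not separate deleted from intact transcripts. Tumor 1 stood apart from the other tumors. Its summed CPM over 12 genes of mature granule neurons was 12073, against 513 to 4363 in the others and 1426 to 1801 in the P7 cerebella, and its 9 Purkinje cell genes summed to 14088 CPM, against 789.6 to 3968 in the others. Tumor 3 was at the other end, with the lowest sums of both lists among the tumors. For that reason results are also given without these tumors, and for some genes without another tumor, where that changes a call. Leaving out the tumor nearest to the other groups favors a call, so a call in such a fit adds no support. Without tumor 1, 15.7% of all genes had an edgeR adjusted p of at most 0.05 against P7 cerebella and 9.75% against SHH MB. Without tumor 3 these shares were 34.6% and 23.4%, and with all tumors 6.26% and 4.68%. The tumors differ in labelled age and so came from separate mice, but the labels do not say this of the SHH MB and the P7 cerebella, whose spread may be technical.

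**Figure D1:**
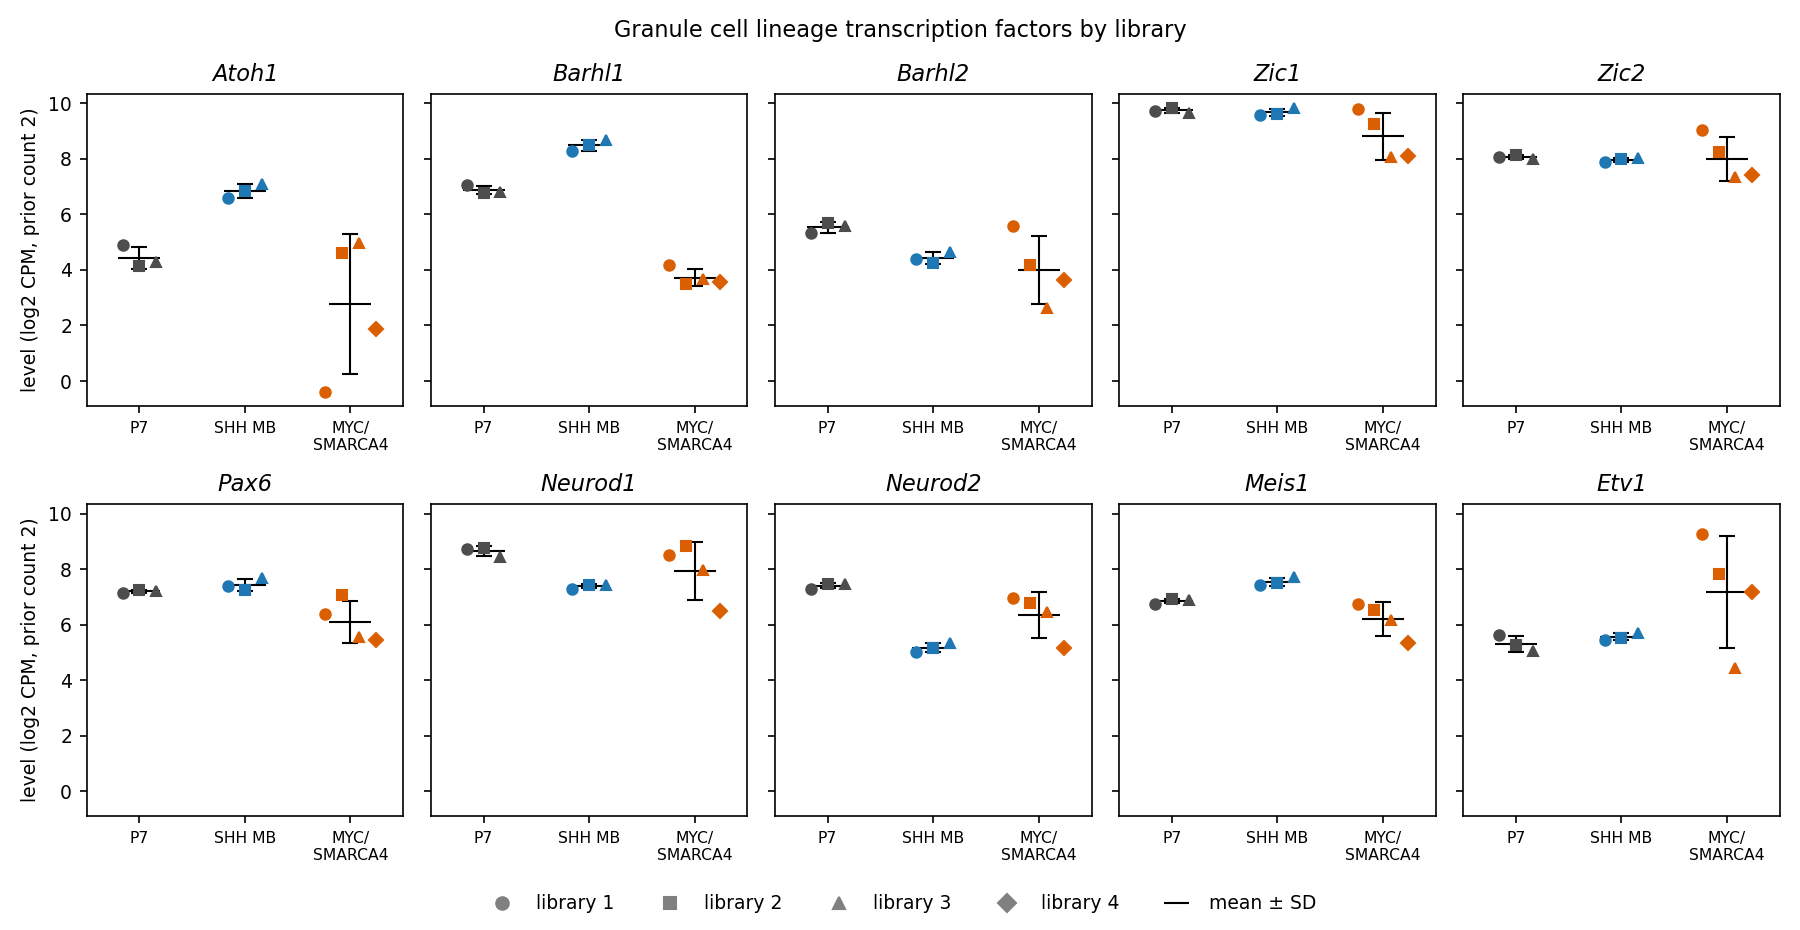
Level of each of the 10 genes in every library, in log2 CPM with a prior count of 2, by group: P7 cerebella (n = 3), SHH MB (n = 3) and MYC/SMARCA4 tumors (n = 4). Symbols mark libraries, and lines with bars mark the mean ± SD. Barhl1 forms 3 separate groups with the tumors lowest, while Atoh1 and Etv1 spread widest among the tumors, with an SD of 2.52 and 2.02.

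Barhl1 separated all 3 groups. It is a BarH-like homeobox factor of GCPs and young granule neurons, needed for their migration and survival. Its level was 132, 108 and 113 CPM in the P7 cerebella, 311, 360.3 and 411 CPM in the SHH MB and 17.7, 11.1, 12.5 and 11.5 CPM in tumors 1 to 4. Every tumor lay below every P7 cerebellum, and every P7 cerebellum below every SHH MB. Barhl1 fell in the tumors against P7 cerebella by 3.16 on the log2 scale (standard error 0.27), and edgeR's quasi-likelihood test gave an adjusted p of 0.000229 after Benjamini-Hochberg adjustment over all genes tested. Against SHH MB it fell by 4.78 on the log2 scale (standard error 0.29, edgeR adjusted p = 6.28e-06). It was higher in SHH MB than in P7 cerebella by 1.62 (standard error 0.28, edgeR adjusted p = 0.0393), a call that was lost without any 1 of the 6 libraries of these groups (edgeR adjusted p between 0.134 and 0.289). Nearly all calls of the series were lost there: 6 of 32205 genes passed without SHH MB 1, and no gene without any other of these libraries. The log2 fold change of Barhl1 stayed between 1.54 and 1.74 with 1 library left out. Both comparisons of the tumors kept their call in all 19 alternatives, with log2 fold changes between -3.42 and -2.97 against P7 cerebella and between -5.06 and -4.60 against SHH MB. Among the 10 genes the tumors varied least in Barhl1, with an SD of 0.30 on the log2 scale. In bulk RNA, fewer cells of a type and less RNA per cell cannot be told apart. Barhl1 lies on chromosome 2, 28797691 to 28806680 of GRCm39 on the minus strand, and Ddx31 overlaps it on the opposite strand.

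Atoh1, the basic helix-loop-helix (bHLH) factor that makes a rhombic lip cell a GCP, was measured at 29.5, 17.2 and 19.4 CPM in the P7 cerebella and at 97.0, 113 and 138 CPM in the SHH MB. In tumors 1 to 4 its counts were 2, 137, 225 and 28, or 0.491, 24.5, 31.2 and 3.39 CPM. Tumor 1 was thus under the floor of 3 counts, whereas tumors 2 and 3 lay within or just above the P7 range. Every tumor was below every SHH MB. The log2 fold change of the tumors was -2.95 against SHH MB (standard error 0.79, edgeR adjusted p = 0.0521), which missed the threshold of 0.05, and over 18 alternatives the adjusted p ranged from 0.00324 to 0.18. Without tumor 1 it was -2.66 with an edgeR adjusted p of 0.00922, and without tumor 3 -3.65 with 0.0133. Of all genes 9.75% and 23.4% passed in these fits. Against P7 cerebella the fitted log2 fold change was -0.55 (standard error 0.77, edgeR adjusted p = 0.648), while the mean of log2 CPM was 2.77 ± 2.52 (SD) over the tumors and 4.44 ± 0.40 (SD) over the P7 cerebella. This fold change was -1.27 without tumor 3, -0.17 without tumor 4 and -1.26 with limma on the deposited VST values, a variance-stabilized log2 scale. SHH MB had a mean of 6.85 ± 0.25 (SD), and the log2 fold change against P7 cerebella was 2.40 (standard error 0.85, edgeR adjusted p = 0.425) in the fit of all groups and 2.41 (edgeR adjusted p = 1.62e-11) in a fit of only these 2 groups. Atoh1 also passed between SHH MB and P7 cerebella when tumor 1 was left out of the fit of all groups. Of all genes 4.05% passed there, and 23.7% in the fit of only these 2 groups.

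Promoters are shown for Barhl1 and Neurod2, which were called between SHH MB and P7 cerebella, and for Atoh1, a choice made after the values were seen. Atoh1 and Neurod proteins are known to bind E-boxes, which have the letters CANNTG. Each sequence holds the 250 bases before the start of the gene, from RefSeq on GRCm38.p6, written 5′ to 3′ on the gene's strand, and capitals mark every CANNTG. Of the 10 genes 9 had a promoter in the RefSeq table, and Zic2 had no entry. GRCm38.p6 is not the build of the counts, so these coordinates differ from those on GRCm39. The Atoh1 promoter lies at chr6:64728875-64729124 (plus strand), the first Barhl1 promoter at chr2:28916669-28916918 and the second at chr2:28912496-28912745 (both minus strand), and Neurod2 at chr11:98329646-98329895 (minus strand).
Atoh1: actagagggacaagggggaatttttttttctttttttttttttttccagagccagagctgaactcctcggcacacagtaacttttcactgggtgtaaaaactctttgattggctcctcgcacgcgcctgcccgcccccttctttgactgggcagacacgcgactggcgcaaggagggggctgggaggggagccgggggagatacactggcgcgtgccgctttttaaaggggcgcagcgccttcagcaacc
Barhl1, first promoter: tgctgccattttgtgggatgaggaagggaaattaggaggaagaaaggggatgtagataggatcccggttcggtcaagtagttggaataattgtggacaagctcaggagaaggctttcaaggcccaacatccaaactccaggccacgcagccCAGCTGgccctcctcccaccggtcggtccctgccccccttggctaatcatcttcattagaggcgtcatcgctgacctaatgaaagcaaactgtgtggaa
Barhl1, second promoter: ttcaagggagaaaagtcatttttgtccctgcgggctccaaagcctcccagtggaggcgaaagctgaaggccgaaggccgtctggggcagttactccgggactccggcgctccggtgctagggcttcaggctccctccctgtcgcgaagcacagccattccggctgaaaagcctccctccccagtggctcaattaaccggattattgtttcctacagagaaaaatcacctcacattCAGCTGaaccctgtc
Neurod2: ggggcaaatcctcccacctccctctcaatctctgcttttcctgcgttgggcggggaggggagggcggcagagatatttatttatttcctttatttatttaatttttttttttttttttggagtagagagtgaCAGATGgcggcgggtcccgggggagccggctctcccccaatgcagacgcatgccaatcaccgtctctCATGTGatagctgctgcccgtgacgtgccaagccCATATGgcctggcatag
Both Barhl1 promoters hold the E-box CAGCTG, which reads the same on both strands and occurs in 16.3% of 32851 promoters of 300 bases, 250 before and 50 after the start. The Atoh1 promoter holds no CANNTG in that window, while 72.3% of promoters hold at least 1. The Neurod2 promoter holds 3 E-boxes, of which CAGATG occurs on either strand in 17.2% of promoters. The MYC-type E-box CACGTG, found in 7.15% of promoters, is present before the start of Zic1 and in the 50 bases after the start of Barhl2. The motif GACCACCCA, known as a binding motif of the Hedgehog effectors GLI, is in no promoter of these genes and in 0.253% of all promoters. Each of the E-boxes named is also a CANNTG, so these matches overlap, and they describe letters only.

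Barhl2, the paralog of Barhl1, did not follow it. It had 39.6, 51.3 and 47.8 CPM in the P7 cerebella, 20.7, 18.8 and 24.9 CPM in the SHH MB and 47.2, 18.0, 5.97 and 12.2 CPM in tumors 1 to 4. The SHH MB lay below the P7 cerebella, in the direction opposite to Barhl1, and the tumors overlapped both groups, with tumor 1 inside the P7 range. The log2 fold changes were -1.17 against P7 cerebella (standard error 0.50, edgeR adjusted p = 0.171) and -0.06 against SHH MB (standard error 0.51, edgeR adjusted p = 0.962). Without tumor 1, the tumor with the highest Barhl2, the difference to P7 cerebella was -2.05 with an edgeR adjusted p of 0.00104. Without tumor 3 it was -1.08 with 0.0421, over a range of 0.00104 to 0.304 in 19 alternatives. Of all genes 15.7% passed without tumor 1 and 34.6% without tumor 3. Counts of Barhl1 and Barhl2 came from separate sequence, as no window of 75 bases, the read length, was shared between any of the 10 genes. On GRCm39, Atoh1 is a gene of 1 exon on chromosome 6 (64706109 to 64708229, plus strand), and Barhl2 lies on chromosome 5 (106600389 to 106606336, minus strand).

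The Zic genes stayed at high levels in every library. Zic1, a zinc finger factor whose loss leaves a small cerebellum, had 848, 919 and 809 CPM in the P7 cerebella and 773, 788 and 901 CPM in the SHH MB. Tumors 1 to 4 had 892, 604, 269.8 and 278 CPM of Zic1, so that tumor 1 lay inside the range of the other groups and the remaining tumors below it. Its log2 fold change was -0.75 against P7 cerebella and -0.68 against SHH MB (standard errors 0.41, edgeR adjusted p = 0.261 and 0.383). Without tumor 1, the tumor with the highest Zic1, it was -1.26 and -1.22 (edgeR adjusted p = 0.0145 and 0.0233, over 19 alternatives each 0.0145 to 0.465 and 0.0233 to 0.62). Of all genes 15.7% and 9.75% passed in that fit. Zic2 is a second zinc finger factor of the family, and 30.1% of the 75-base windows of its transcript also lie in exons of the opposite-strand gene 2610035F20Rik. Zic2 had 271, 282 and 253 CPM in the P7 cerebella, 234, 255 and 259.6 CPM in the SHH MB and 522, 301, 164 and 169 CPM in the tumors. The tumors lay on both sides of the other groups, and the log2 fold changes of Zic2 were 0.11 and 0.21 (standard errors 0.38, edgeR adjusted p = 0.867 and 0.797), with a sign that turned in several alternatives. Zic1 lies on chromosome 9 (91240111 to 91247863, minus strand, with Zic4 on the opposite strand) and Zic2 on chromosome 14 (122711827 to 122717264, plus strand).

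Pax6 and Meis1 were lowest in the tumors. Pax6, a paired box factor that guides granule cell migration and axon growth, had 141, 152 and 149 CPM in the P7 cerebella, 167, 152 and 205 CPM in the SHH MB and 82.5, 134, 46.6 and 43.5 CPM in the tumors. All tumors lay under both other groups, with tumor 2 close to the lowest P7 cerebellum. The log2 fold changes of Pax6 were -0.94 against P7 cerebella (standard error 0.36, edgeR adjusted p = 0.129) and -1.19 against SHH MB (standard error 0.36, edgeR adjusted p = 0.083), and neither passed the threshold. Without tumor 2, the tumor with the highest Pax6, they were -1.36 and -1.60 (edgeR adjusted p = 0.0405 and 0.0215). In that fit 528 of 29869 genes were higher and 477 lower against P7 cerebella, and 385 and 536 against SHH MB. Against SHH MB Pax6 also passed without tumor 1 or tumor 3 (edgeR adjusted p = 0.033 and 0.0412), where 9.75% and 23.4% of all genes did. Over 19 alternatives the adjusted p ranged from 0.0294 to 0.317 and from 0.0188 to 0.322. Of the 75-base windows of the Pax6 transcript 56.6% also lie in exons of the opposite-strand gene Elp4, and the strand setting of the counting is not given in the sources used here. Meis1, a TALE homeodomain factor that acts as a cofactor in granule cell development, had 108, 121 and 117 CPM in the P7 cerebella, 170.3, 179.6 and 208 CPM in the SHH MB and 106, 91.7, 72.5 and 40.2 CPM in the tumors. Tumor 1 came within a few CPM of the P7 cerebella, whereas all tumors were far under the SHH MB. Meis1 fell against SHH MB by 1.26 on the log2 scale (standard error 0.31, edgeR adjusted p = 0.0353), and its difference to P7 cerebella was -0.57 (standard error 0.31, edgeR adjusted p = 0.254). The call against SHH MB was lost in 7 of 19 alternatives, among them every fit without 1 of the SHH MB (edgeR adjusted p = 0.133, 0.147 and 0.188) and without tumor 2 (0.0593), while the log2 fold change stayed between -1.56 and -1.05. Pax6 lies on chromosome 2 (105499234 to 105530952, plus strand) and Meis1 on chromosome 11 (18829817 to 18969749, minus strand).

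Neurod1 and Neurod2 are bHLH factors that drive exit from the precursor state and support survival of granule neurons. Neurod1 had 422, 434 and 349.7 CPM in the P7 cerebella and 157, 173 and 172 CPM in the SHH MB. In tumors 1 to 4 it had 363, 452, 249.984 and 88.9 CPM, so that tumor 1 was in the P7 range, tumor 2 just above it, tumor 3 between both groups and tumor 4 under the SHH MB. The log2 fold change of Neurod1 was -0.48 against P7 cerebella (standard error 0.42, edgeR adjusted p = 0.465) and 0.79 against SHH MB (standard error 0.43, edgeR adjusted p = 0.338). Neurod2 had 157, 177 and 176 CPM in the P7 cerebella, 31.9, 35.4 and 40.4 CPM in the SHH MB and 126, 109.6, 88.3 and 35.7 CPM in the tumors. Tumors 1 to 3 lay between the other groups, and tumor 4 was within the SHH MB range. Neurod2 fell in SHH MB against P7 cerebella by 2.24 on the log2 scale (standard error 0.39, edgeR adjusted p = 0.0402), a call that was lost without any 1 of the 6 libraries of these groups (edgeR adjusted p between 0.207 and 0.276). At most 6 genes of all passed in any of those fits. The log2 fold change of Neurod2 stayed between -2.31 and -2.13 with 1 library left out. In the tumors its log2 fold change was -0.92 against P7 cerebella (standard error 0.35, edgeR adjusted p = 0.126) and 1.32 against SHH MB (standard error 0.37, edgeR adjusted p = 0.0606). Without tumor 4, the tumor with the lowest Neurod2, the difference to SHH MB was 1.51 with an edgeR adjusted p of 0.0053. In that fit 626 of 29789 genes were higher and 627 lower. Without tumor 3 the difference was 1.17 with an edgeR adjusted p of 0.039, where 23.4% of all genes passed. The adjusted p ranged from 0.0053 to 0.282 in 19 alternatives. Against P7 cerebella Neurod2 passed without tumor 1 (-1.21, edgeR adjusted p = 0.0264) and without tumor 3 (-1.10, 0.036), over a range of 0.0264 to 0.298. Of all genes 15.7% and 34.6% passed there. Neurod1 lies on chromosome 2 (79282865 to 79287294) and Neurod2 on chromosome 11 (98216241 to 98220480), both on the minus strand.

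Etv1, an ETS factor that activates genes of late granule cell maturation, had the largest fitted increase of the 10 genes in both comparisons of the tumors, with a mean of 253 CPM against 39.9 in P7 cerebella and 47.1 in SHH MB, but missed the threshold in both. It had 48.6, 38.2 and 33.0 CPM in the P7 cerebella and 43.7, 45.9 and 51.8 CPM in the SHH MB, against 621, 224, 21.7 and 144 CPM in tumors 1 to 4. Tumors 1, 2 and 4 were above all other libraries and tumor 3 was below them. The log2 fold change of Etv1 was 2.66 against P7 cerebella (standard error 0.76, edgeR adjusted p = 0.0566) and 2.42 against SHH MB (standard error 0.75, edgeR adjusted p = 0.0897). Without tumor 3, the only tumor with low Etv1, these were 2.81 and 2.59 with edgeR adjusted p of 0.00244 and 0.00217. In that fit 34.6% and 23.4% of all genes passed. Over 19 alternatives the adjusted p of Etv1 ranged from 0.00204 to 0.239 and from 0.00217 to 0.309. The tumors had the same order in the 12 genes of mature granule neurons, whose summed CPM was 12073, 4363, 513 and 2556 in tumors 1 to 4, and in the 9 Purkinje cell genes, with 14088, 3968, 789.6 and 2739.65 CPM. Whether these markers and Etv1 come from the same cells was not tested. Of the 75-base windows of the Etv1 transcript 16.4% also occur in other genes, mostly Gm5454. Etv1 lies on chromosome 12 (38828851 to 38920483, plus strand).

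**Figure D2:**
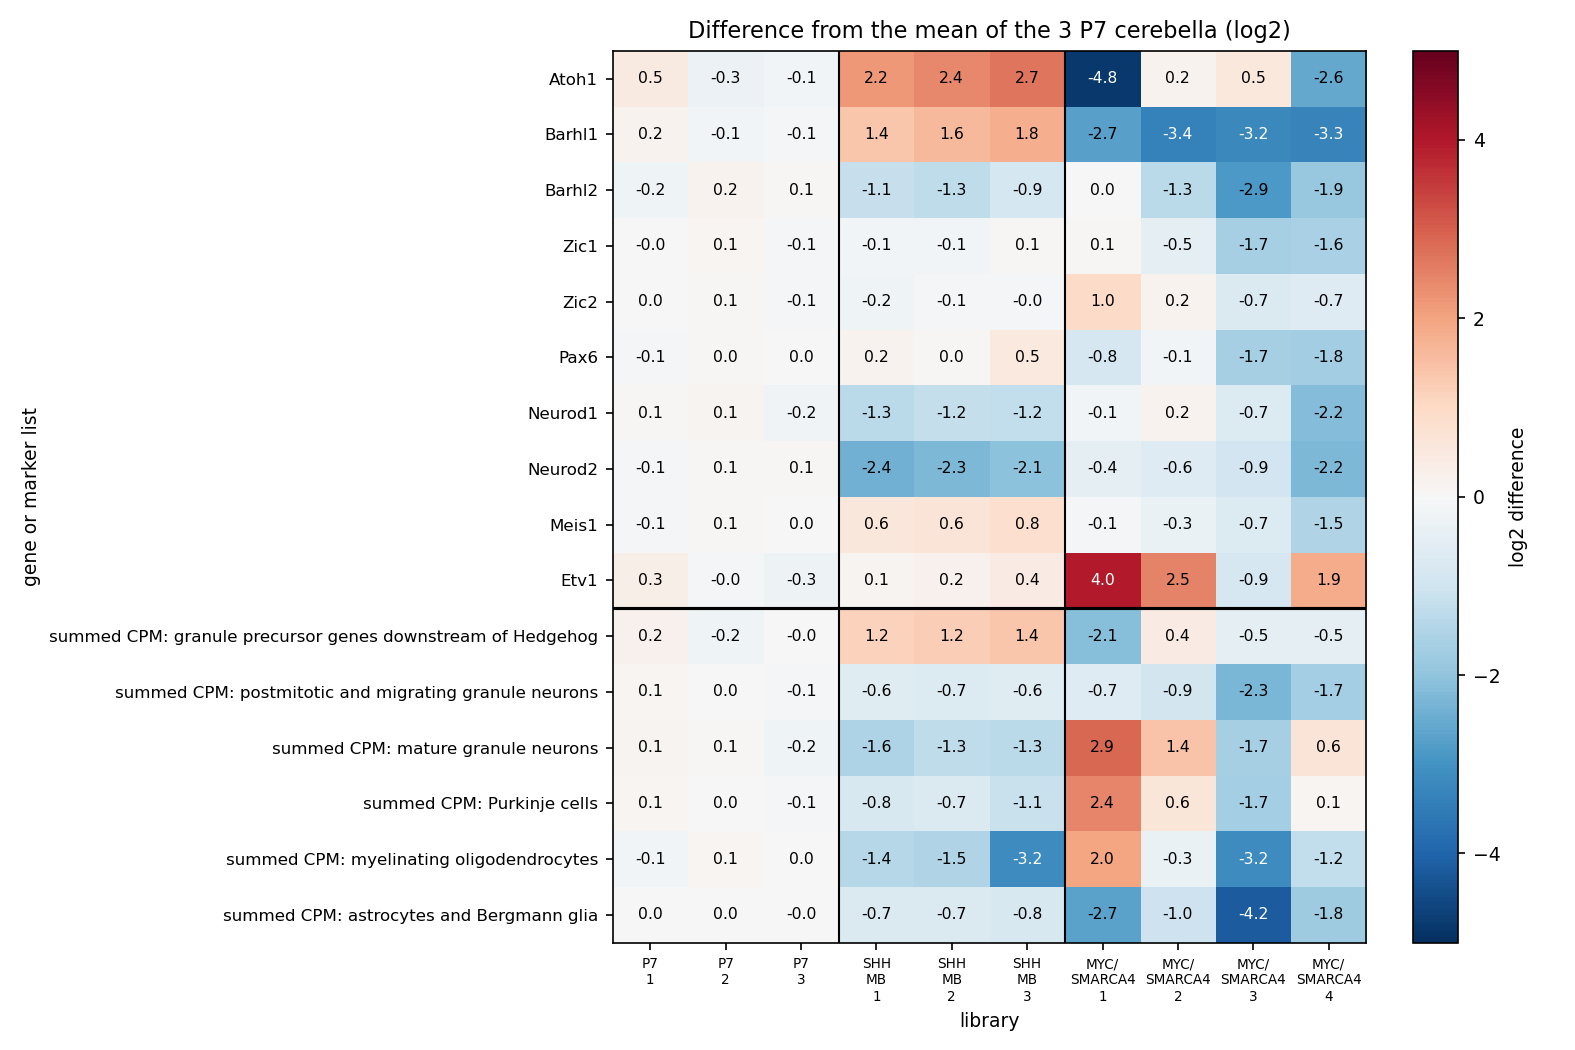
Difference of each library from the mean of the 3 P7 cerebella on the log2 scale, for the 10 genes (upper rows, log2 CPM) and for the summed CPM of 6 marker lists (lower rows). Red is higher and blue is lower than the P7 mean, and the number in each field is the difference. The tumors are alike in Barhl1, while tumors 1 and 3 lie at opposite ends for Etv1 and for mature granule neuron and Purkinje cell genes.

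Of the 10 genes, 1 passed the threshold between tumors and P7 cerebella, Barhl1, where 6.26% of all genes tested did (3.99% higher and 2.27% lower). Their median log2 fold change was -0.66, against -0.05 over all genes tested. Between tumors and SHH MB 2 of 10 passed, Barhl1 and Meis1, both lower, with 4.68% over all genes (2.43% higher and 2.26% lower), and the medians were -0.37 and 0.01. Between SHH MB and P7 cerebella Barhl1 was higher and Neurod2 lower, 2 of 10 against 0.224% of all genes (0.177% higher and 0.0467% lower). The fit of all libraries takes 1 spread per gene for all 3 groups. The median SD over all genes was 0.81 among the tumors and 0.26 in each other group. The spread of the tumors thus enters this comparison without tumors, and the smaller spread of the other groups enters those with tumors. In a fit of only SHH MB and P7 cerebella, 6 of 10 genes passed, where 23.7% of all genes did: Atoh1, Barhl1 and Meis1 rose and Barhl2, Neurod1 and Neurod2 fell. Without tumor 1 the count against P7 cerebella was 4 of 10 (background 15.7%) and against SHH MB 5 of 10 (9.75%), and without tumor 3 it was 4 of 10 (34.6%) and 6 of 10 (23.4%). Against SHH MB 6 of 10 passed with DESeq2 (12%) and 1 in the fit of 2 groups (1.48%), and against P7 cerebella these were 2 (14.8%) and 1 (0.813%). For SHH MB against P7 cerebella 2 passed with DESeq2 (2.55%), 3 without tumor 1 (4.05%) and 2 without tumor 3 (1.54%). The gene added without tumor 1 was Atoh1, higher in SHH MB. Under the stricter thresholds of the study, Barhl1 alone passed against P7 cerebella (0.29% and 0.738% of all genes with the fold threshold at 2.5 and at 1.5 on the log2 scale) and against SHH MB (0.601% and 1.23%), and none of the 10 between SHH MB and P7 cerebella (0.01% and 0.0134%). The 3 comparisons share their samples and are not independent.

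**Figure D3:**
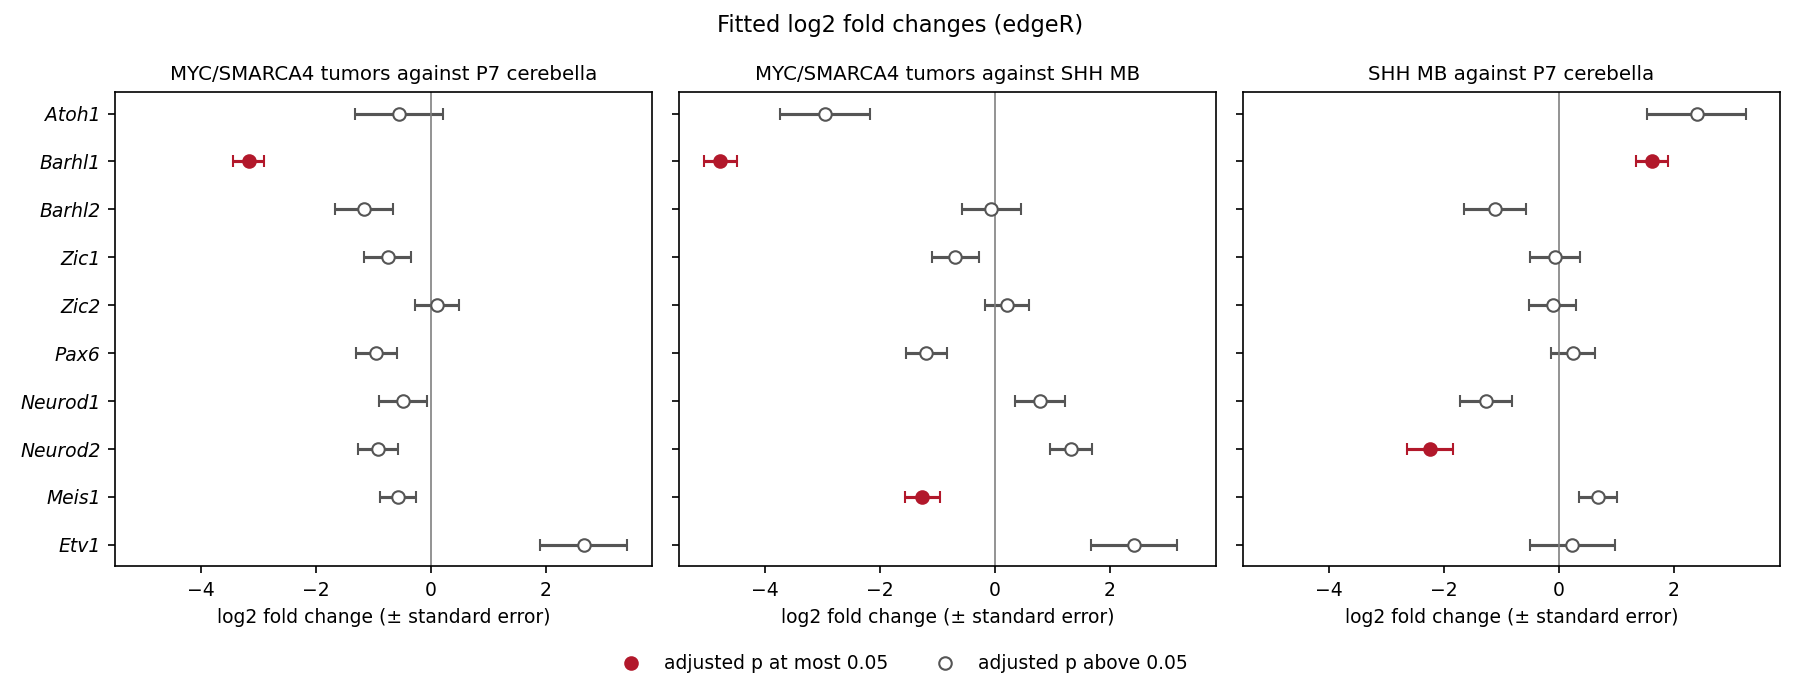
Log2 fold change of the 10 genes from edgeR's fit of all 10 libraries, for the 3 comparisons, with a standard error derived from the F statistic of the test. Filled symbols mark an adjusted p of at most 0.05. Barhl1 is filled in all 3 panels, at -3.16, -4.78 and 1.62, Meis1 in the comparison with SHH MB and Neurod2 between SHH MB and P7 cerebella.

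Counted without a test, 4 of the 10 genes had no overlap between tumors and P7 cerebella, with all tumors lower: Barhl1, Pax6, Neurod2 and Meis1 (10.7% of all genes were lower without overlap, 21% in either direction). Against SHH MB these were Atoh1, Barhl1, Pax6 and Meis1 (8.3% of all genes lower, 16.1% in either direction). No gene of the 10 was higher without overlap in the tumors, where 10.3% of all genes were against P7 cerebella and 7.83% against SHH MB. Between SHH MB and P7 cerebella 7 of 10 genes did not overlap, where 36.8% of all genes did not. Atoh1, Barhl1, Pax6 and Meis1 were higher in SHH MB (17.8% of all genes), Pax6 by less than 1 CPM at the nearest libraries, and Barhl2, Neurod1 and Neurod2 were lower (19%). The spread also differed: the median SD of the 10 genes was 0.83 on the log2 scale among the tumors, 0.13 among the P7 cerebella and 0.16 among the SHH MB, and over all genes tested it was 0.81, 0.26 and 0.26.

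Ratios within a library do not depend on its size, and 4 were compared, in 12 exact two-sided permutation tests. The log2 ratio of Zic1 to Zic2 was 1.65, 1.70 and 1.68 in the P7 cerebella, 1.72, 1.63 and 1.79 in the SHH MB and 0.77, 1.01, 0.71 and 0.71 in tumors 1 to 4. P7 cerebella and SHH MB overlapped, and every tumor was lower, tumor 1 included. The mean difference was -0.87 to P7 cerebella and -0.91 to SHH MB (exact permutation p = 0.029 for both, the smallest that 35 splits allow, and 0.114 after adjustment over the 12 tests). The windows that Zic2 shares with 2610035F20Rik are a limit of this ratio.

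The log2 ratio of Barhl1 to Barhl2 was 1.73, 1.07 and 1.24 in the P7 cerebella, 3.90, 4.24 and 4.03 in the SHH MB and -1.40, -0.69, 1.03 and -0.09 in the tumors. The groups did not overlap, with SHH MB highest and tumors lowest. Its mean difference was -4.34 between tumors and SHH MB (exact permutation p = 0.029, adjusted 0.114) and -1.63 between tumors and P7 cerebella (exact permutation p = 0.0571, adjusted 0.114). Neurod1 to Atoh1, a ratio of differentiation to precursor factor, was 3.83, 4.64 and 4.15 in the P7 cerebella and 0.69, 0.61 and 0.31 in the SHH MB. In tumors 1 to 4 it was 8.89, 4.19, 2.99 and 4.61, where the value of tumor 1 rests on 2 counts of Atoh1. All tumors were above the SHH MB (difference 4.63, exact permutation p = 0.0571, adjusted 0.114), and they overlapped the P7 cerebella (difference 0.97, exact permutation p = 0.771). The ratio of Neurod2 to Neurod1 was -1.60 ± 0.31 (SD, n = 4) in the tumors, -2.22 ± 0.12 (SD, n = 3) in SHH MB and -1.24 ± 0.23 (SD, n = 3) in P7 cerebella. Between SHH MB and P7 cerebella no p under 0.1 is possible with 20 splits.

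**Figure D4:**
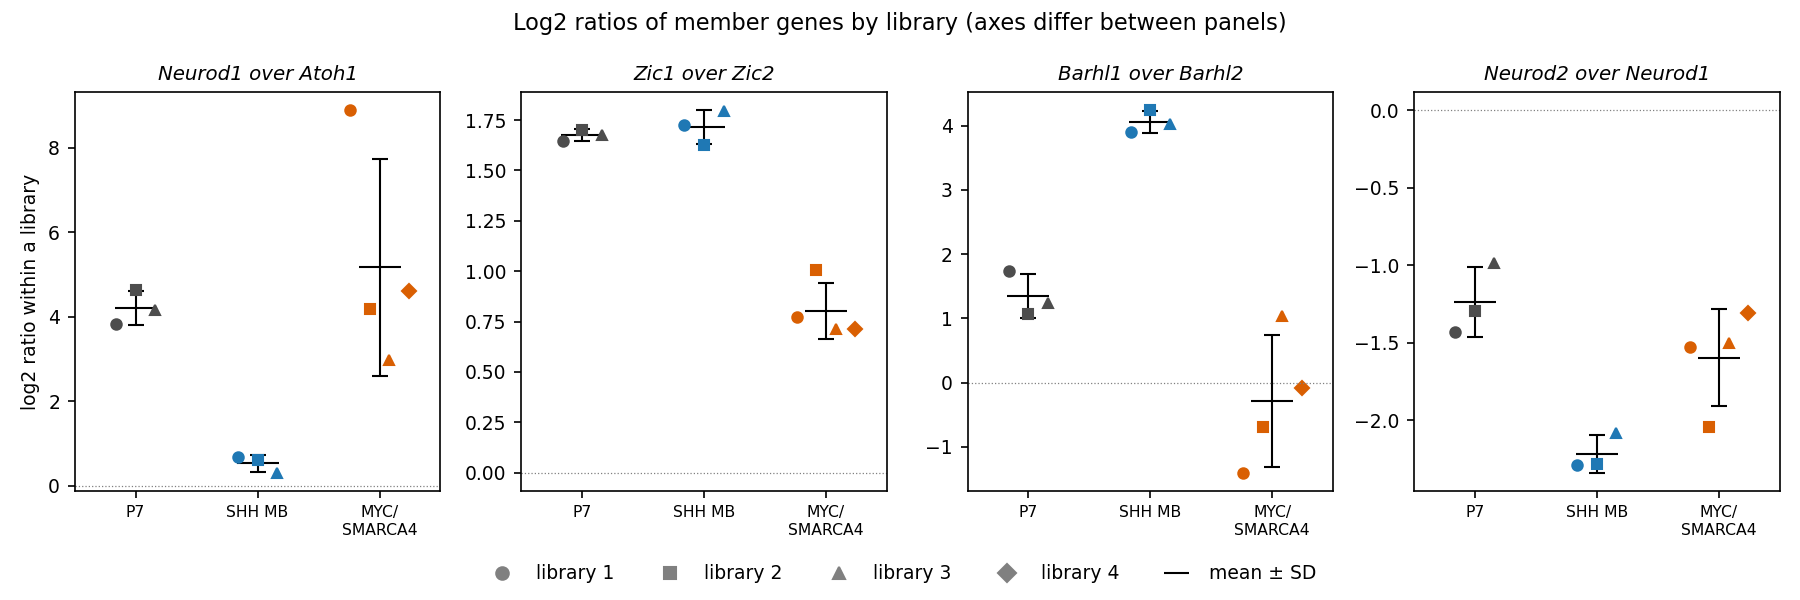
Log2 ratios of gene pairs within each library, by group, with the mean ± SD, for P7 cerebella (n = 3), SHH MB (n = 3) and MYC/SMARCA4 tumors (n = 4). The vertical axes differ between panels. All tumors lie below the other groups for Zic1 over Zic2, between 0.71 and 1.01, and for Barhl1 over Barhl2.

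To compare levels between genes, CPM were divided by the length of merged exons. In the P7 cerebella Zic1 was highest at 7.23 ± 0.09 log2 CPM per kb (SD, n = 3), followed by Neurod1 at 7.04 ± 0.17, and their ranges overlapped. Zic2, Neurod2, Barhl1 and Barhl2 followed without overlap between neighbours, then Meis1, Atoh1 and Pax6, with Atoh1 overlapping both of its neighbours, and Etv1 last. In the SHH MB Barhl1 was second at 6.52 ± 0.20, behind Zic1 and ahead of Zic2, and Atoh1 at 5.76 ± 0.25 overlapped Neurod1. In the tumors Neurod1, Zic1 and Zic2 came first with overlapping ranges, at 6.34 ± 1.04, 6.30 ± 0.85 and 6.03 ± 0.79 (SD, n = 4). Barhl1 was in 9th place at 1.73 ± 0.31 and Atoh1 in 10th at 1.49 ± 2.798. With the length of the canonical transcript, a choice added after the data were seen, Meis1 moved from 7th to 5th place in the P7 cerebella, and Barhl1 and Atoh1 kept the last places in the tumors.

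Other genes of the lineage give the setting of these factors. A list of 22 further transcription factors was set for the granule cell lineage, though not all of them are particular to it. Of these 5 were lower and none higher in the tumors against P7 cerebella, with a median log2 fold change of -0.71. Over all genes 2.27% were lower and 3.99% higher. Nhlh1 and Nhlh2, bHLH factors of young postmitotic neurons, fell by 3.11 and 2.96 on the log2 scale (edgeR adjusted p = 0.00986 and 0.000561). Pax3 fell by 2.24 and En1 by 3.09 (edgeR adjusted p = 0.00318 and 0.0114). Against SHH MB 6 of 22 were lower and 2 higher, where 2.26% of all genes were lower and 2.43% higher. Nhlh1, Nhlh2, Nfia and Pax3 had log2 fold changes of -3.89, -3.60, -2.28 and -1.51 (edgeR adjusted p = 0.00211, 6.58e-05, 0.00294 and 0.0192).

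Of 10 precursor genes of the Hedgehog pathway and its targets, 2 were lower against P7 cerebella and 7 against SHH MB, with medians of -0.51 and -2.30 and none higher. Over all genes 2.27% and 2.26% were lower. Sfrp1, a secreted Wnt inhibitor, and Mycn, the MYC family member that Hedgehog induces in GCPs, had log2 fold changes of -4.20 and -3.74 against P7 cerebella (edgeR adjusted p = 0.000299 and 0.00192). Against SHH MB these were -6.05 and -5.01, and Ccnd1 also fell, by 2.87 on the log2 scale (edgeR adjusted p = 0.00485). Between SHH MB and P7 cerebella Ccnd1, a cyclin of dividing precursors, was the only one of these genes past the threshold (log2 fold change 2.97, edgeR adjusted p = 0.0402).

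Of 12 genes of postmitotic and migrating granule neurons 4 fell and none rose in either comparison of the tumors, with medians of -1.15 against P7 cerebella and -0.19 against SHH MB. Over all genes 2.27% and 2.26% were lower. The same 4 fell in both, Dcx, Tubb3, Astn1 and Sema6a, of which the microtubule-binding Dcx had log2 fold changes of -4.15 and -3.98 (edgeR adjusted p = 0.0027 and 0.00192). Of 12 genes of mature granule neurons 4 were higher against P7 cerebella and 9 against SHH MB, none lower, with medians of 2.27 and 3.63. Over all genes 3.99% and 2.43% were higher. Some markers of other cells moved beside the mature granule neuron genes. Against SHH MB the medians of Purkinje cell, myelin and interneuron genes were 2.58, 2.12 and 1.30, with 2 of 9, 1 of 8 and 0 of 6 called higher. Against P7 cerebella they were 0.77, 0.54 and -0.22 with none called. Unipolar brush cell and microglia genes had medians of 1.89 and 0.71 against SHH MB. Endothelial and meningeal genes had medians of -0.09 and -0.38 there. Astrocyte and Bergmann glia genes went the other way, with medians of -0.87 against SHH MB and -1.79 against P7 cerebella. The part of these cells in the result was not tested. Cbln3, a synaptic organizer partner of granule cells, had a log2 fold change of 4.27 against P7 cerebella (edgeR adjusted p = 0.0239), Grin2c and Gabra6, receptor subunits of mature granule cells, 3.41 each (edgeR adjusted p = 0.0246 and 0.0278), and the glutamate transporter Slc17a7 1.79 (edgeR adjusted p = 0.0362). Against SHH MB the lowest adjusted p were those of Slc17a7, Gabra6, Cbln3 and the calcium sensor Vsnl1, with log2 fold changes of 4.34, 5.84, 6.09 and 4.48 (edgeR adjusted p = 0.000575, 0.00388, 0.00665 and 0.0157). Cbln3 was at 1744 CPM in tumor 1 and at 42.5 CPM in tumor 3. Without tumor 1 the mature list had 4 and 9 genes called higher, with medians of 1.14 and 2.30, and without tumor 3 it had 10 and 12. Over all genes 15.7% and 9.75% were called in either direction without tumor 1, and 34.6% and 23.4% without tumor 3.

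Genes whose levels moved most like those of Barhl1, Atoh1 and Neurod1 were ranked by Pearson's r of log2 CPM over the 10 libraries among 13200 genes, as a description, since the libraries share 3 groups. For Barhl1 they were Adgrg1 (r = 0.99), Gm32940, Eln, Gm13179 and E130114P18Rik (r = 0.98 each). Adgrg1, an adhesion G protein-coupled receptor, had 6.74 to 6.89 log2 CPM in P7 cerebella, 8.03 to 8.20 in SHH MB and 4.16 to 4.57 in the tumors, the same order of groups as Barhl1. For Atoh1 they were Phf21b (r = 0.99), Ebf3, Dock11, Mycl and Smtn (r between 0.97 and 0.98). For Neurod1 they were Ppm1h, Nova1, LOC118568581, Gm52528 and Esrrg (r between 0.93 and 0.95). None of these 15 genes was one of the 10 factors.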

How the data were processed

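FFPE RNA of 3 P7 cerebella, 3 SHH MB and 4 MYC/SMARCA4 tumors was sequenced. The authors depleted ribosomal RNA, prepared CORALL libraries and sequenced single-end reads of 75 bases. Per the methods and the submitters' processing notes, reads were checked with FastQC (0.73), trimmed with Trimmomatic (0.38.1), aligned to GRCm39 with STAR (2.7.8a) and counted with featureCounts (2.0.1). Whole-number counts for each gene were deposited by the authors and taken over unchanged. The authors also deposited values on a log2 scale from the variance-stabilizing transformation (VST) of DESeq2 (2.11.40.7), used here in an alternative. The gene annotation and strand setting of the counting are not given in the sources used here.

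Counts of all 10 libraries entered 1 fit with edgeR 4.0.16 (R 4.3.3), with TMM factors, filterByExpr and a mean per group. The spread of a gene was taken as the same in the 3 groups. P-values of the quasi-likelihood test were adjusted over 29952 genes by the Benjamini-Hochberg method, and a gene was called at an adjusted p of at most 0.05. This test gives no standard error. Those printed were derived from its F statistic, as the absolute log2 fold change divided by the square root of F. Scripts were tested on simulated data. Levels are normalized CPM, with a prior count of 2 on the log2 scale. Intervals were not computed from counts, and floors of 3 counts cover counting error only. Named were all 10 genes, up to 4 called genes with the lowest adjusted p per list of the granule cell lineage, the 5 genes most like Atoh1, Barhl1 and Neurod1, and Myc, Smarca4 and Smo as checks. One gene that this rule names is not reported here. Adgrg1 was picked from these after its values were seen. The members and the 12 lists of 111 genes were chosen with earlier results of these data known. Positions and lengths come from GENCODE on GRCm39, and promoters from RefSeq on GRCm38.p6, without conversion. Library totals ranged from 5663491 to 9352109 counts.

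Alternatives were DESeq2 1.42.0, limma 3.58.1 on the deposited VST values, RLE factors, other filters, leaving 39 mitochondrial and rRNA-like genes out of the library sizes, a block for the replicate number, robust fitting, separate fits of each pair of groups, a prior count of 0.5 in the ratios, each library left out in turn, and the stricter thresholds of the study, a log2 fold change of at least 2.5 or 1.5 with an adjusted p of at most 0.01. The length of the canonical transcript and the list counts without tumor 1 or tumor 3 were added after the data were seen.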

Additional observations from a re-analysis of the deposited data

How the results depend on the processing

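Barhl1 was called lower in the tumors in every alternative of both comparisons. The number of the 10 genes called changed more. Against P7 cerebella it was 1, and 2 with DESeq2, without a filter on low counts and with at least 10 counts in every library. DESeq2 called 14.8% of all genes. Without a filter 1063 of 47925 genes were higher and 530 lower. With at least 10 counts 835 of 15814 were higher and 1031 lower. Leaving out 1 library gave 1 to 4, with 4 without tumor 1 or tumor 3 (15.7% and 34.6% of all genes) and 2 without tumor 2. Without tumor 2, 528 of 29869 genes were higher and 477 lower. Against SHH MB the number was 2, and 6 with DESeq2 (12% of all genes) and 4 without a filter (807 higher and 628 lower of 47925). It was 1 in the fit of 2 groups (1.48%) and under both stricter thresholds (0.601% and 1.23%). Leaving out 1 library gave 1 to 6, with 5 without tumor 1 (9.75% of all genes), 6 without tumor 3 (23.4%) and 1 without any 1 of the SHH MB. In these last fits 54 to 61 genes of all were higher and 257 to 312 lower, of 32205 to 32579 tested. Between SHH MB and P7 cerebella the number was 2, and 6 in the fit of 2 groups (23.7% of all genes). It was 0 with limma on VST values, where 67 genes of all passed, and 0 under both stricter thresholds (0.01% and 0.0134%). Leaving out 1 library gave 0 to 3, with 3 without tumor 1 (4.05% of all genes) and 0 without any 1 of the 6 libraries compared. In those 6 fits hardly any gene passed: 6 of 32205 without SHH MB 1, and none without any other of these libraries. The causes of these changes were not tested.

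Libraries of the same number share only the number: the correlation of their deviations from the group means lay between -0.27 and 0.16. With the replicate number as a block, 1 gene was called against P7 cerebella, 2 against SHH MB (Barhl1 lower and Neurod2 higher, log2 fold change 1.58) and 1 between SHH MB and P7 cerebella. The block reduced the calls over all genes from 1194 higher and 680 lower to 165 and 206 against P7 cerebella. With it 231 genes of all were higher and 400 lower against SHH MB, and 16 and 3 between SHH MB and P7 cerebella.

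Signs turned for Zic2, Barhl2, Zic1 and a pair of ratios, none of them past its threshold. Zic2 against P7 cerebella was -0.0094 with limma on VST values, -0.21 with at least 10 counts in every library, -0.054 in the fit of 2 groups and between -0.44 and 0.15 with 1 library left out. Zic2 against SHH MB was -0.021 with at least 10 counts in every library and between -0.36 and 0.27 with 1 library left out. Barhl2 against SHH MB lay between -0.97 and 0.061, and Zic1 between SHH MB and P7 cerebella between -0.11 and 0.0096, with 1 library left out. The difference in the log2 ratio of Neurod1 to Atoh1 between tumors and P7 cerebella was -0.28 without tumor 1, in a range up to 1.69, and that of Zic1 to Zic2 between SHH MB and P7 cerebella lay between -0.00049 and 0.084. With 1 library fewer in a compared group, an exact test of a ratio cannot go below 0.05. Of the 22 further lineage factors 5 were lower and none higher against P7 cerebella. Without tumor 1, 10 were lower and 2 higher, and without tumor 3, 9 and 1. Postmitotic genes called lower numbered 4, and 9 and 7 in these fits, and mature genes called higher 4, and 4 and 10. Against SHH MB 6 further factors were lower and 2 higher, 8 and 2 without tumor 1, and 9 and 4 without tumor 3. Calls over all genes rose too, from 6.26% to 15.7% and 34.6% against P7 cerebella. Against SHH MB they rose from 4.68% to 9.75% and 23.4%. Atoh1 had 2 counts in tumor 1 and could not be tested with at least 10 counts in every library.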

Other observations

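Markers of other cerebellar cells were less uniform among the tumors than in the other groups. Of 8 genes of astrocytes and Bergmann glia 4 were lower in the tumors against P7 cerebella and none higher, with a median log2 fold change of -1.79, and their summed CPM was 105 to 928 in the tumors, 1086 to 1163 in SHH MB and 1873 to 1926 in P7 cerebella. Against SHH MB 2 of them were lower and 1 higher. None of the 9 Purkinje cell genes, 6 interneuron genes, 4 unipolar brush cell genes, 8 myelin genes, 7 microglia genes, 6 endothelial genes and 7 genes of meninges and fibroblasts passed edgeR's test against P7 cerebella, whereas 2 Purkinje cell genes and 1 myelin gene were higher and 1 endothelial gene lower against SHH MB.

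Myelin genes summed to 4075 CPM in tumor 1, to 115 CPM in tumor 3 and to between 929 and 1110 CPM in P7 cerebella. Unipolar brush cell genes, which mark another glutamatergic line of the rhombic lip, summed to 654, 411, 168 and 149.9 CPM in tumors 1 to 4, 115 to 141 CPM in SHH MB and 223 to 238 CPM in P7 cerebella. Interneuron genes summed to 50.4 to 1223 CPM in the tumors, microglia genes to 40.9 to 147, endothelial genes to 87.0 to 292 and meningeal and fibroblast genes to 85.6 to 372 CPM. Of all these genes at most 1 per library, an interneuron gene, had no count. Mitochondrial genes took 6.36% of counts in tumor 1, 2.29 to 2.94% in the other tumors and 1.25 to 1.59% in the other groups. Smo had 14.0 CPM in tumor 1 and up to 114 CPM in the others.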
